A study of Mus musculus with 9 samples.

Results

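A set of 43 genes of DNA replication and nucleotide supply was followed in cultured mouse chondrocytes, the cells of cartilage. Its members were the rows of the gene count table whose symbol was on a fixed list, and all 43 were found among the 56748 genes of the table. All 43 also passed the filter on low counts that left 15502 genes for testing. The cells came from the knee cartilage of wild-type mice (genotype WT in the labels), were freed with collagenase D and were grown in culture. The 9 libraries formed 3 groups of 3: Control cells without added factor, cells given IL-1β (interleukin-1β, an inflammatory cytokine), and cells given IL-1β plus recombinant SFRP5 (secreted frizzled-related protein 5, a secreted protein that binds Wnt ligands). Dose, length of treatment, and the age and sex of the mice are not given in the sources used here. No group received SFRP5 alone, and nothing says whether libraries of a group came from separate animals or cultures, so the spread behind each p-value is that among libraries of a group and may be technical.

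Before DNA can be copied, the origin recognition complex with CDC6 and CDT1 loads the ring-shaped MCM helicase onto origins. CDC45 and the GINS complex then switch the helicase on, primase starts each new strand, polymerases extend it, and the sliding clamp PCNA, loaded by the RFC complex, holds the polymerase on DNA. Ribonucleotide reductase, thymidylate synthase, thymidine kinase and dUTPase supply the DNA building blocks. Many of these genes are switched on by E2F transcription factors when a cell leaves its resting state, and cartilage cells in a mature joint divide little, whereas chondrocytes in culture can proliferate. In such bulk libraries, fewer cells in the phase of DNA synthesis and less transcript per cell cannot be told apart.

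The values were deposited counts. The total per library was 15795985 to 20688963, of which the 43 genes held 8252 to 20432 counts, or 0.0447 to 0.103%. The lowest count of any of them in a library was 6. Levels below are CPM (counts per one-million-count library, the library size being corrected by TMM factors), with the SD over the 3 libraries of a group after the ± sign. For changes, on the log2 scale, the SE follows that sign. They come from edgeR's quasi-likelihood test in 1 fit over all 9 libraries. Each adjusted p of a gene comes from that test with Benjamini-Hochberg adjustment over the 15502 genes, unless another setting or a left-out library is named. In those cases it comes from the fit named, adjusted over the genes of that fit. The threshold for calling a gene was 0.05. Depth in CPM terms was such that 3 counts equalled 0.135 to 0.195 CPM.

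Chondrocyte markers were present in all libraries, and other markers also moved with the groups. The summed level of 8 chondrocyte markers was 105800 to 108100 CPM in control, 21320 to 22460 CPM with IL-1β and 26970 to 28310 CPM with IL-1β and SFRP5, and all 8 were called lower with IL-1β. Macrophage markers (9 genes) summed to 11.87 to 12.29, 17.68 to 17.82 and 14.22 to 17.17 CPM in the same order, 7 neutrophil markers to at most 0.1515 CPM in control and 5.833 to 7.206 CPM with IL-1β, and 5 endothelial markers to 0.3612 to 0.5078 and 3.33 to 4.192 CPM. The macrophage list was split with IL-1β. Of its 3 tested genes, Cd68 (mean 1.46 to 6.80 CPM) and Csf1r (1.51 to 2.27 CPM) were called higher, and Lyz2 (7.82 and 7.83 CPM) was not called. Of those below the filter, C1qa, C1qb, Cx3cr1 and Fcgr1 had lower means and Ptprc and Adgre1 higher ones. The neutrophil markers Ly6g, S100a9 and Ngp, the endothelial marker Emcn, the osteoblast marker Sost and 5 of 6 lymphocyte markers had 0 counts in every library. Osteoblast markers (5 genes) summed to 21.83 to 22.07 CPM in control and 0.243 to 1.423 CPM with IL-1β, and 5 skeletal muscle markers to 4.062 to 5.87 CPM and 0.8477 to 1.594 CPM. Synovial fibroblast markers (5 genes, of which 3 were called higher and 2 lower with IL-1β) summed to 192.5 to 198 CPM, 886.2 to 945.7 CPM and, with SFRP5, 1129 to 1163 CPM. The part of any of these cells in the results below was not tested.

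IL-1β was set against control first. Most of them were lower: 34 of 43 were called lower, or 79.1% of them, against 40.4% of all genes tested, and 5 were called higher (11.6%, against 38.5% of all genes). In either direction 39 of 43 were called, with 78.9% called among all genes. Their median log2 change was −1.31, beside −0.03 over all genes tested, and 27 of the 43 were called and at least 2-fold lower, against 21.2% of all genes. The 3 IL-1β libraries lay wholly outside the range of the 3 control libraries for 41 of the 43, against 80% of all genes. The summed level of the 43 genes was 915.2 to 934.9 CPM in control and 476.5 to 507.8 CPM with IL-1β. The 5 exceptions that rose were Cdt1, Pcna, Prim2, Tyms and E2f1, and they came from 5 different functional groups. All 5, and 33 of the 34 that fell (not Pola2), were called in the same direction under all 17 other settings tried.

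**Figure D1:**
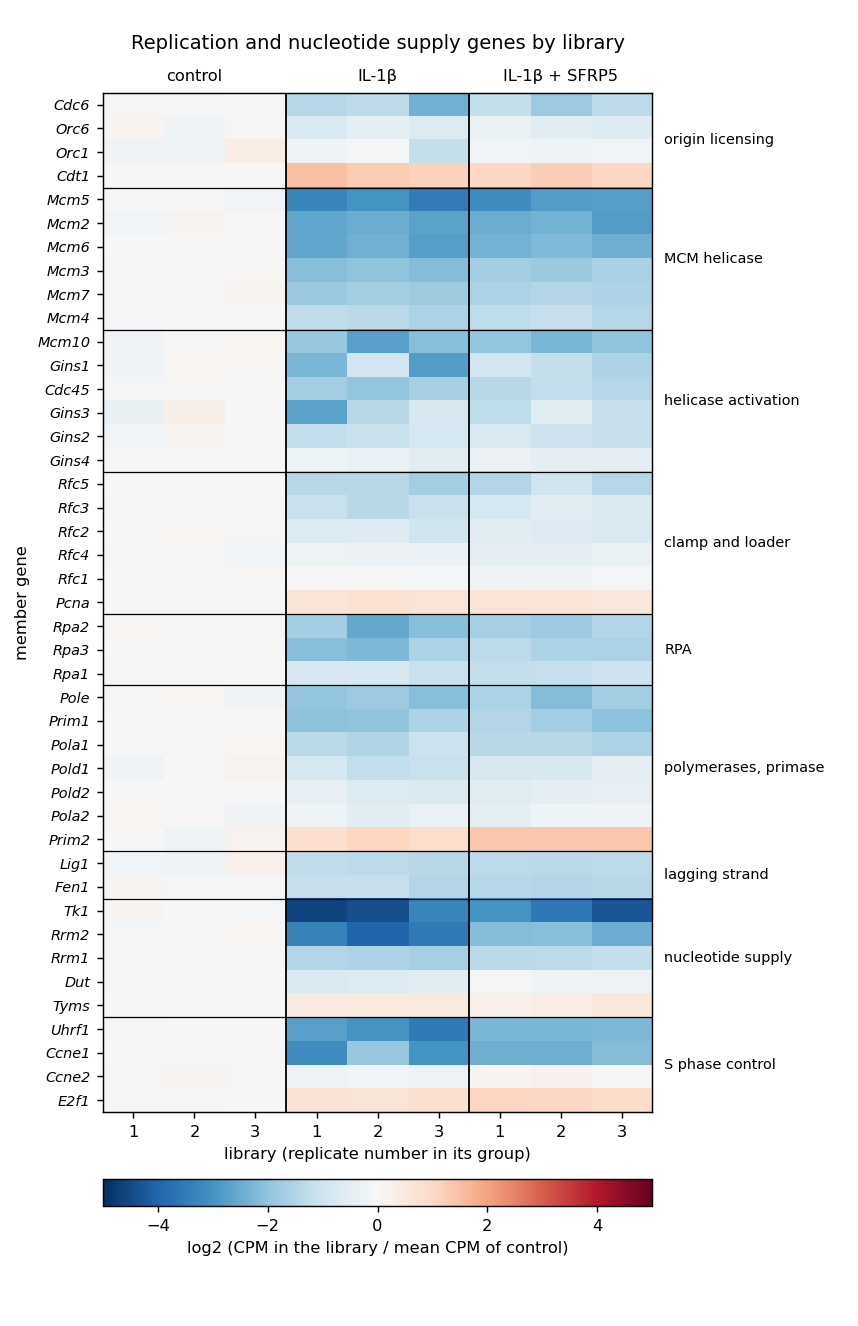
Heat map of the log2 ratio of each gene's CPM in a library (columns, 3 per group) to its mean CPM in control, with the 43 genes in rows by functional group; blue is below and red above the control mean. The rows of Tk1, Rrm2, Mcm5 and Uhrf1 are the deepest blue with IL-1β, with log2 changes of −3.03 or lower in the fit, and the rows of Cdt1, Pcna, Prim2, Tyms and E2f1 are red in all 6 treated libraries.

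The MCM genes encode the 6 subunits of the replicative helicase, and all 6 fell with IL-1β, by 1.40 (Mcm4) to 3.23 (Mcm5) on the log2 scale. Among all genes tested 40.4% were called lower. Mcm5 (ENSMUSG00000005410) was at 23.6, 22.9 and 20.5 CPM in the control libraries, at 2.31, 2.85 and 1.99 CPM with IL-1β and at 2.56, 3.19 and 3.30 CPM with IL-1β and SFRP5. It kept 10.7% of its control level after IL-1β (log2 change −3.23 ± 0.14, adjusted p = 5.79e-17). Mcm2 was at 44.5, 53.0 and 47.7 CPM in control and at 7.90, 8.72 and 7.52 CPM with IL-1β, a log2 change of −2.59 ± 0.10 (adjusted p = 2.19e-18). For both genes the groups did not overlap, and with SFRP5 Mcm2 stood at 8.58, 9.50 and 7.02 CPM. Mcm6 was at 52.4, 50.9 and 52.2 CPM in control and fell to 8.63, 9.69 and 7.63 CPM (−2.59 ± 0.08, adjusted p = 1.12e-19), with 10.1, 11.3 and 9.62 CPM after SFRP5. Mcm7, the subunit gene with the highest counts, was at 52.1, 51.3 and 58.6 CPM in control and at 14.8, 16.7 and 15.6 CPM with IL-1β (−1.78 ± 0.07, adjusted p = 1.96e-17), and Mcm3 kept 23.4% of its control level. The 6 transcripts did not fall evenly. Per kilobase of the gene length that the table gives, the levels in control ran from 5.60 (Mcm5) to 12.2 CPM per kb (Mcm7), a 2.18-fold span, and with IL-1β from 0.597 (Mcm5) to 3.84 CPM per kb (Mcm4), a 6.43-fold span. Within a library, the ratio of Mcm4 to Mcm5 counts, which does not depend on the scaling between libraries, was 1.49 to 1.77 in control, 5.04 to 6.45 with IL-1β and 4.12 to 5.90 with SFRP5 added.

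Because these helicase genes moved together, their promoters were read for the letters of E2F sites. RefSeq promoters of build GRCm38.p6, 250 bases before to 50 after a transcription start, were in hand for 35 of the 43 genes. They were searched on both strands for TTTCGCGC, TTTGGCGC, TTTCCCGC and TTTGGCGG, some of whose matches overlap on opposite strands. At least 1 such match was found for 15 of 35 genes (42.9%), against 730 of 27025 genes in the whole promoter table (2.7%). Base composition, which differs among promoters, was not matched in that share. CCAAT, in either direction, was found for 22 of 35 (62.9%) against 41.1% of all genes. Among MCM genes, 4 of the 5 with a promoter in hand held E2F-type letters, Mcm2 being the one without. Of the genes that rose with IL-1β, 1 of 4 held them (Cdt1, 33 bases after its start), and of those that fell 13 of 28 did. Neither Pcna, E2f1 and Tyms, which rose, nor Rrm2 and Tk1, which fell the most, had a match in this window. The windows below are 30 bases long, read 5′ to 3′ on the strand of the gene, with the matched letters in capitals. They are shown because these 4 helicase genes fell together while Cdt1, whose product loads the helicase, rose.
Mcm3 (chr1:20820275-20820304, minus strand): aaacttccgtgGCGGGAAAacttgggaagt
Mcm5 (chr8:75109345-75109374, plus strand): gcgccaagaacTTTCGCGCcaaaacgtcca
Mcm6 (chr1:128359797-128359826, minus strand): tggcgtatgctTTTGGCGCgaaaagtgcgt
Mcm7 (chr5:138171849-138171878, minus strand): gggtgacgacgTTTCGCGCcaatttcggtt
Cdt1 (chr8:122568035-122568064, plus strand): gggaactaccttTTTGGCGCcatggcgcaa
In the Mcm5 and Mcm6 windows a second match on the other strand overlapped the one in capitals, 4 bases on. Such a match describes the letters and is not evidence that a factor binds there.

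The genes that license origins split. Of the 4, 2 were called lower (50%, against 40.4% of all genes) and 1 higher (25%, against 38.5%). In either direction 75% were called, near the 78.9% of all genes. Cdt1 (ENSMUSG00000006585), whose product brings the MCM ring to the origin and which is destroyed in S phase, was at 6.72, 6.95 and 6.65 CPM in control and at 19.0, 16.5 and 15.3 CPM with IL-1β. With SFRP5 it was at 13.8, 16.0 and 13.9 CPM. The level with IL-1β alone was 2.49-fold higher than in control (log2 change 1.32 ± 0.11, adjusted p = 4.96e-11), with no overlap between the libraries. Cdc6, which loads the helicase together with CDT1, fell from 3.94 ± 0.187 to 1.26 ± 0.452 CPM (−1.65 ± 0.26, adjusted p = 3.48e-06). Orc6, a small subunit of the origin recognition complex, fell by 0.62 on the log2 scale. Orc1, its largest subunit and an ATPase, was low in all groups, with 1.96 ± 0.503 CPM in control against 1.46 ± 0.526 CPM after IL-1β, a difference that did not pass the test (−0.43 ± 0.30, adjusted p = 0.192). By library totals alone, with no correction factors, Orc1 was called lower (−0.67, adjusted p = 0.0413). The ratio of Cdt1 to Cdc6 counts within a library was 1.68 to 1.80 in control and 10.5 to 20.6 with IL-1β. That shift restates the rise of Cdt1 and the fall of Cdc6.

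All 6 genes that activate the helicase fell, where 40.4% of all genes tested were called lower. Gins4, a GINS subunit, was the member of this group with the highest counts and fell least: its libraries stood at 14.9, 15.9 and 15.7 CPM in control and 13.3, 12.4 and 10.9 CPM with IL-1β, with 12.6, 11.4 and 11.2 CPM after SFRP5 (IL-1β against control −0.35 ± 0.10, adjusted p = 0.00223). The other 3 GINS genes kept 28.6% (Gins1) to 47.4% (Gins2) of their control level. Gins1 and Gins3 varied widely between IL-1β libraries, Gins3 from 0.790 to 2.85 CPM. Mcm10, a factor needed to start unwinding, fell to 21.8% of control and Cdc45, which travels with the helicase at the fork, to 28.8%.

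The sliding clamp and its loader behaved differently from each other. Of these 6 genes 3 were called lower with IL-1β (50%, against 40.4% of all genes) and 1 higher (16.7%, against 38.5%). In either direction 66.7% were called, against 78.9% of all genes. Pcna (ENSMUSG00000027342), the clamp on which polymerases and repair factors ride, was at 50.9, 48.1 and 52.4 CPM in control, at 78.8, 86.3 and 78.2 CPM with IL-1β, and at 81.8, 78.6 and 75.4 CPM with IL-1β and SFRP5. All 6 treated libraries were above all control libraries, and the rise with IL-1β was 1.61-fold (0.69 ± 0.05, adjusted p = 1.09e-11). Reads from processed copies of Pcna could be split by the counting. The copies named Pcna-ps1 and Pcna-ps2 held 0 and 37 counts over all 9 libraries. Copies under other symbols were not looked at, and the effect of copies on the Pcna level was not tested. Of the 5 loader genes, Rfc2, Rfc3 and Rfc5 fell, to 59.0, 43.7 and 35.2% of control. Rfc1, the large subunit, was at 54.4, 54.1 and 57.8 CPM in control and 56.9, 56.6 and 53.7 CPM with IL-1β, so that the groups overlapped (0.01 ± 0.05, adjusted p = 0.894). The direction for Rfc1 depends on the scaling between libraries, since upper-quartile factors gave −0.14 (adjusted p = 0.0138). Rfc4 was at 6.59 ± 0.521 and 5.42 ± 0.0412 CPM and was not called (adjusted p = 0.0750), although upper-quartile factors called it lower (adjusted p = 0.00873).

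All 3 genes of RPA, a trimer that coats single-stranded DNA, fell, where 40.4% of all genes tested were called lower. Rpa2 and Rpa3 fell to 23.4% and 25.9% of control. Rpa1, the large DNA-binding subunit, was at 67.8, 61.7 and 65.4 CPM in control and 36.8, 37.4 and 29.8 CPM with IL-1β, which is 53.3% of control (−0.91 ± 0.07, adjusted p = 6.7e-12). The ratio of Rpa1 to Rpa2 counts was 3.74 to 4.25 in control libraries and 7.29 to 13.4 with IL-1β.

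Of the 7 polymerase and primase genes 6 fell (85.7%, against 40.4% of all genes) and Prim2 rose. Prim2 (ENSMUSG00000026134), the large regulatory subunit of primase, was at 11.1, 9.66 and 12.4 CPM in control and 19.6, 23.4 and 20.2 CPM with IL-1β (0.93 ± 0.10, adjusted p = 2.25e-09). Its partner Prim1, the catalytic subunit that makes the RNA primer, went the other way, from 8.35 ± 0.112 to 2.30 ± 0.471 CPM (−1.85 ± 0.18, adjusted p = 1.13e-09). The ratio of Prim2 to Prim1 counts lay between 1.14 and 1.51 in control libraries, between 7.10 and 11.4 with IL-1β, and between 9.18 and 14.0 after SFRP5 was added. These subunit ratios, and those of Cdt1 to Cdc6 and of Tyms to Tk1, were picked after their values were seen and are given with no test. Pole, the catalytic subunit of the leading-strand polymerase ε, fell to 25.5% of control, Pola1, the catalytic subunit of polymerase α, to 40.7%, Pold1, that of polymerase δ, to 47.8%, and Pold2 to 65.9%. Pola2, which tethers polymerase α to primase, fell least (−0.35 ± 0.14, adjusted p = 0.0241). Its call was lost without control library 1 (adjusted p = 0.0924) or 2 (0.0699), or IL-1β library 2 (0.150) or 3 (0.0538), and in DESeq2 (0.0892).

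**Figure D2:**
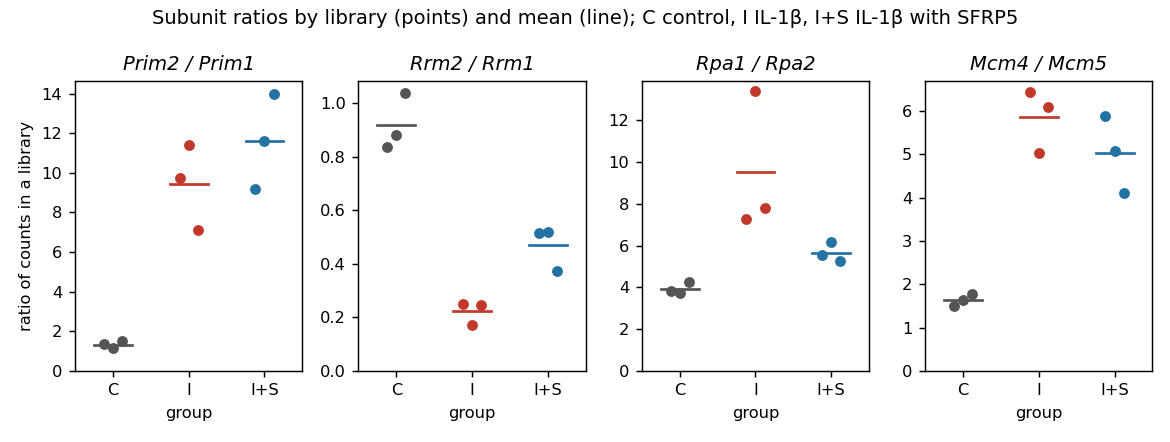
Ratio of the raw counts of 2 genes within each library (vertical axis, no unit; points, 3 per group; lines, means) for 4 pairs of subunits. Prim2 over Prim1 lies at 1.14 to 1.51 in control and at 7.10 or above in all treated libraries, and Rrm2 over Rrm1 lies lowest with IL-1β alone.

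Both genes that finish the lagging strand fell, where 40.4% of all genes tested were called lower. Lig1, the DNA ligase that joins Okazaki fragments, was at 15.9, 15.6 and 20.8 CPM in control and 7.29, 7.09 and 6.66 CPM with IL-1β, and at 6.95, 6.83 and 7.02 CPM with SFRP5 (IL-1β against control −1.31 ± 0.12, adjusted p = 3.13e-10). Fen1, the nuclease that trims their flaps, fell to 42.2% of control.

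Nucleotide supply held both the deepest falls and a rise. Of its 5 genes 4 were called lower (80%, against 40.4% of all genes) and 1 higher (20%, against 38.5%). Tk1 (ENSMUSG00000025574), the thymidine kinase of dividing cells, was at 12.6, 11.4 and 10.8 CPM in control and at 0.486, 0.545 and 1.20 CPM with IL-1β, or 8 to 21 counts per library. It kept 6.40% of its control level (−3.94 ± 0.25, adjusted p = 1.65e-13). Rrm2 (ENSMUSG00000020649), the small subunit of ribonucleotide reductase whose amount follows the cell cycle, was at 54.4, 55.5 and 60.1 CPM in control and at 5.65, 3.63 and 4.84 CPM with IL-1β, or 8.31% of control (−3.59 ± 0.11, adjusted p = 2.1e-20). The large subunit Rrm1, which is steadier through the cycle, was at 65.0, 62.9 and 57.7 CPM in control and 22.7, 21.0 and 19.8 CPM with IL-1β (−1.55 ± 0.07, adjusted p = 8.5e-17). Dut, which encodes dUTPase, the enzyme that keeps uracil out of DNA and makes dUMP for thymidylate synthesis, fell to 63.0% of control. Tyms (ENSMUSG00000025747), thymidylate synthase, instead rose, from 13.8, 13.9 and 13.4 CPM in control to 18.5, 19.4 and 19.1 CPM with IL-1β (0.47 ± 0.09, adjusted p = 4.2e-05). The groups did not overlap. The copy Tyms-ps held 2 counts over all libraries, and the effect of copies on the Tyms level was not tested. The ratio of Tyms to Tk1 counts was 1.10 to 1.24 in control and 16.0 to 38.0 with IL-1β. That shift restates the rise of Tyms and the fall of Tk1.

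The group of E2f1, Ccne1, Ccne2 and Uhrf1 was also split. Of these 4, 2 were called lower (50%, against 40.4% of all genes) and 1 higher (25%, against 38.5%). In either direction 75% were called, near the 78.9% of all genes. E2f1 (ENSMUSG00000027490), the E2F activator that drives many genes of this list, was at 21.4, 22.9 and 21.8 CPM in control and 35.9, 34.8 and 38.0 CPM with IL-1β, which is 1.64-fold higher (0.72 ± 0.07, adjusted p = 4.27e-10). Ccne1, a cyclin E that starts S phase with CDK2, fell from 11.4 ± 0.434 to 1.95 ± 0.987 CPM (−2.55 ± 0.20, adjusted p = 1.96e-11). Its relative Ccne2 was at 10.3, 11.8 and 10.5 CPM in control and 8.99, 9.87 and 9.17 CPM with IL-1β and was not called (−0.22 ± 0.11, adjusted p = 0.0775), although upper-quartile factors called it lower (adjusted p = 0.00468). Uhrf1, which reads newly copied, half-methylated DNA and brings in the methyltransferase DNMT1, was at 20.6, 22.1 and 22.1 CPM in control and 3.28, 2.79 and 1.88 CPM with IL-1β (−3.03 ± 0.14, adjusted p = 2.04e-16).

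**Figure D3:**
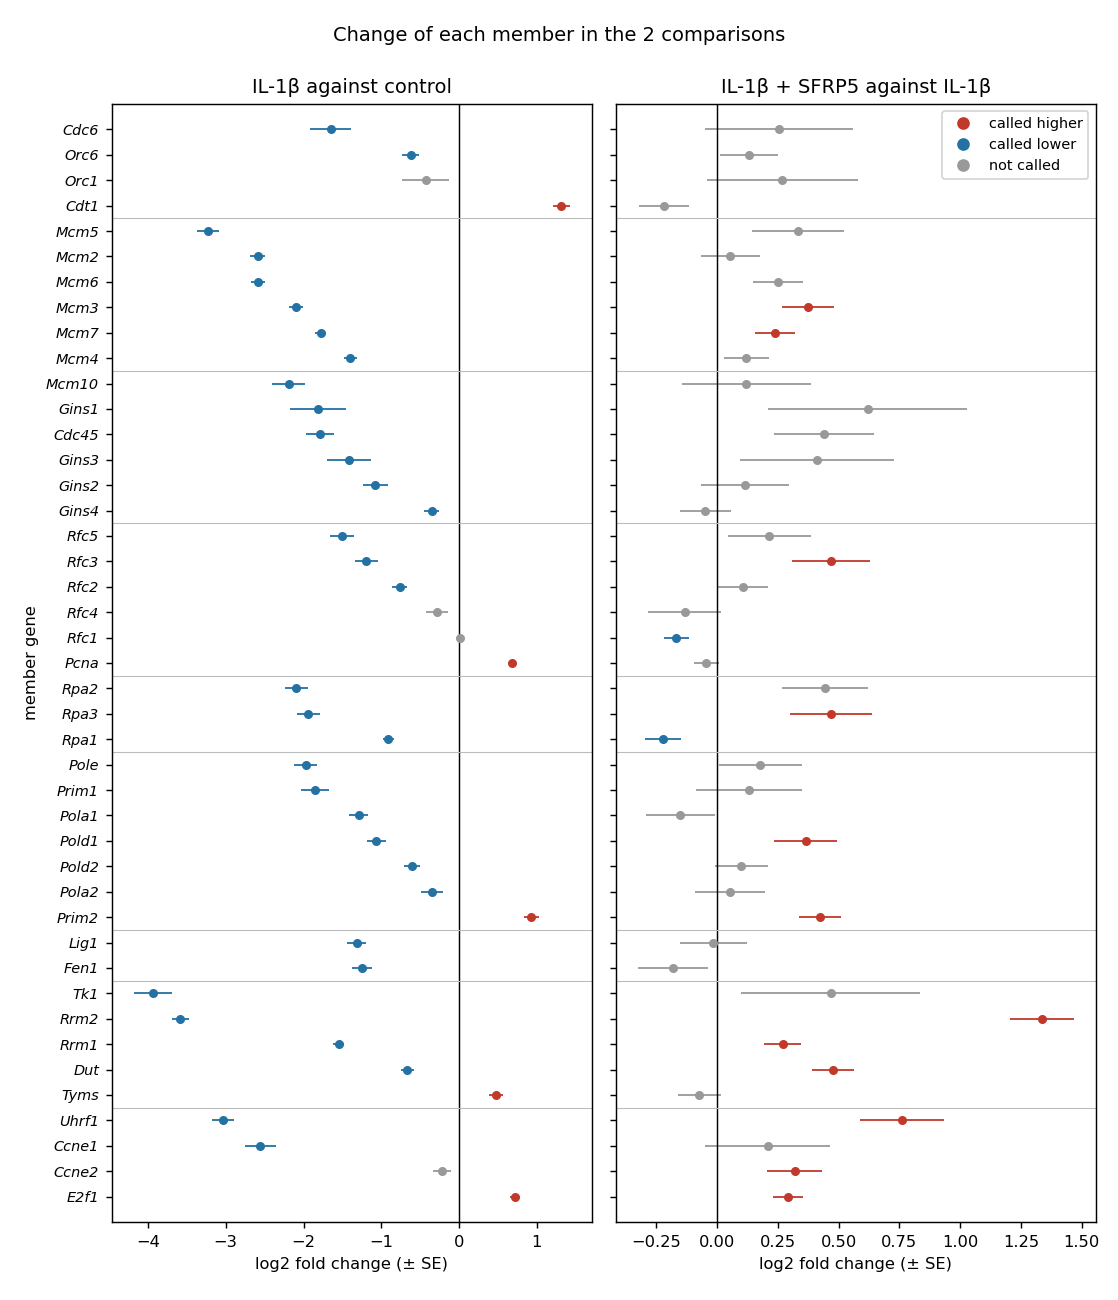
Log2 fold change with its SE (horizontal axes, drawn to different scales) for each of the 43 genes, with IL-1β against control at left and with SFRP5 added against IL-1β alone at right; red and blue mark genes called higher and lower, grey those not called. At left 34 genes are called lower and 5 higher, and at right 12 are called higher and 2 lower, led by Rrm2.

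The next question was what SFRP5 did to cells that also received IL-1β. Fewer of the 43 genes were called, led by a rise of Rrm2. In either direction 14 of 43 were called, or 32.6%, with 31.3% called among all genes tested, so the share of genes called was near the background. By direction, 12 were called higher (27.9%, against 15.6% of all genes) and 2 lower (4.65%, against 15.7%). The median log2 change was 0.22, beside 0.01 over all genes. For 14 of the 43, and for 40.8% of all genes, the ranges of both groups were apart. The lowest log2 change was −0.22 (Rpa1), so edgeR called 0 of them at least 2-fold lower, at any p, against 1.91% of all genes. The IL-1β libraries serve both as the treated group of the first comparison and as the reference here, so the 2 sets of changes are not independent, and only their own values are given. By library totals alone, with no correction factors, the share of calls that were higher among all genes rose from 49.8 to 69.7% in this comparison and fell from 48.8 to 37.7% in the first.

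Rrm2 changed most when SFRP5 was added. Its libraries stood at 12.5, 13.1 and 10.15 CPM with SFRP5, all above the 3.63 to 5.65 CPM of IL-1β alone and all below the control libraries. It was 2.53-fold higher than with IL-1β alone (log2 change 1.34 ± 0.13, adjusted p = 1.04e-08) and at 21.0% of control. Rrm1 was at 24.3, 25.2 and 27.1 CPM and 1.21-fold higher than with IL-1β alone (0.27 ± 0.08, adjusted p = 0.00714). The Rrm2 to Rrm1 ratio was 0.836 to 1.04 in control, 0.173 to 0.249 with IL-1β and 0.374 to 0.518 with SFRP5. Dut was at 22.5, 25.2 and 23.9 CPM in the control libraries, 14.1, 14.7 and 16.3 CPM with IL-1β, and 22.3, 20.6 and 19.8 CPM with SFRP5 (0.48 ± 0.09, adjusted p = 0.000115). For Dut the SFRP5 libraries lay just below the control range and above the IL-1β range. Tk1, at 1.48, 0.976 and 0.590 CPM, stayed near its IL-1β level with counts too few to settle a small difference (0.47 ± 0.37, adjusted p = 0.371). Tyms was at 16.2, 17.8 and 20.3 CPM and was not called (−0.07 ± 0.09, adjusted p = 0.592).

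Among regulators, E2f1 rose further with SFRP5. It was at 46.3, 45.4 and 41.5 CPM, above all IL-1β libraries (0.29 ± 0.06, adjusted p = 0.000824) and 201% of its control level. Uhrf1 was at 4.44, 4.42 and 4.54 CPM, 1.69-fold above IL-1β alone (0.76 ± 0.17, adjusted p = 0.00136). Ccne2 was at 11.8, 12.6 and 10.6 CPM (0.32 ± 0.11, adjusted p = 0.0324), while Ccne1 at 2.25 ± 0.253 CPM was not called (0.21 ± 0.26, adjusted p = 0.593). Prim2 moved further from control with SFRP5, to 28.1, 28.6 and 28.0 CPM (0.42 ± 0.09, adjusted p = 0.000458), or 255% of its control level. Prim1 was at 2.51 ± 0.527 CPM and was not called (0.13 ± 0.22, adjusted p = 0.694).

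In the helicase and fork groups the changes with SFRP5 were small. Of the 6 MCM genes 2 were called, both higher, Mcm3 and Mcm7. That is 33.3%, near the 31.3% of all genes called in either direction (15.6% higher). Mcm3 was at 30.4, 31.8 and 33.5 CPM in the control libraries, 7.35, 7.93 and 7.12 CPM with IL-1β and 9.62, 8.85 and 10.5 CPM with SFRP5 (0.37 ± 0.11, adjusted p = 0.00929). Mcm7 was at 17.8, 19.3 and 18.7 CPM with SFRP5 (0.24 ± 0.08, adjusted p = 0.0295). Both stayed below their control libraries. The summed level of the 6 MCM genes was 238.2 to 248.9 CPM in control, 51.98 to 60.25 CPM with IL-1β and 62.72 to 68.3 CPM with SFRP5. Rfc3, a small loader subunit, was at 8.89, 9.03 and 9.60 CPM in the control libraries, 4.25, 3.51 and 4.27 CPM with IL-1β and 4.93, 6.31 and 5.55 CPM with SFRP5 (0.47 ± 0.16, adjusted p = 0.0262). Rpa3 (0.47 ± 0.17, adjusted p = 0.0356) and Pold1 (0.36 ± 0.13, adjusted p = 0.0347) were the other 2 genes called higher. The 2 called lower were Rfc1, at 49.2, 48.6 and 51.2 CPM (−0.17 ± 0.05, adjusted p = 0.0160), and Rpa1, at 28.8, 28.9 and 31.4 CPM (−0.22 ± 0.08, adjusted p = 0.0257), the large subunits of the loader and of RPA. For Rpa1 the IL-1β and SFRP5 libraries overlapped. Pcna (−0.04 ± 0.05, adjusted p = 0.576), Cdt1 (−0.22 ± 0.10, adjusted p = 0.112), Gins4 (−0.05 ± 0.10, adjusted p = 0.781) and Lig1 (−0.01 ± 0.14, adjusted p = 0.955) were not called. In the licensing, helicase activation and lagging-strand groups edgeR called 0 of 12 genes at an adjusted p under 0.05, against 31.3% of all genes. Of them 1, 1 and 0 were at an unadjusted p under 0.05, and DESeq2 also called 0.

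Of the 12 genes called higher with SFRP5, 6 were called under all 17 of those settings, namely Prim2, Rrm1, Rrm2, Dut, E2f1 and Uhrf1. The other 6 and the 2 called lower each lost the call under at least 1. DESeq2 called 7 of the 12, losing Mcm7 (adjusted p = 0.0812), Rfc3 (0.0642), Rpa3 (0.0675), Pold1 (0.0755) and Ccne2 (0.0955). Mcm3 lost it without SFRP5 library 3 (adjusted p = 0.0522). Mcm7 lost it without IL-1β library 1 (0.114) or 3 (0.0649) or SFRP5 library 2 (0.0919) or 3 (0.0640). Rfc3 lost it without IL-1β library 2 (0.110) or SFRP5 library 2 (0.108) or 3 (0.0519), and Rpa3 without IL-1β library 1 (0.129) or 2 (0.169) or SFRP5 library 1 (0.183). Pold1 lost it without IL-1β library 2 (0.141) or 3 (0.0829) or SFRP5 library 3 (0.191). Ccne2 lost it without IL-1β library 1 (0.0923) or 3 (0.0787) or SFRP5 library 1 (0.0812) or 2 (0.120). Rfc1 lost it without IL-1β library 1 (0.0584) or 2 (0.0611) or SFRP5 library 1 (0.0616) or 2 (0.0526), and Rpa1 without the same libraries (0.114, 0.147, 0.0977 and 0.0711). With all libraries kept, Rpa3 also lost it with only the 6 libraries compared (0.074), Ccne2 with no low-count filter (0.0508), and Rfc1 and Rpa1 with library totals (0.222 and 0.151). In the other direction, Mcm6 passed without IL-1β library 2 (0.0246), as did Ccne1 (0.0398) and Gins1 (0.0311), and Rpa2 passed without IL-1β library 1 (0.00693) or SFRP5 library 2 (0.0456). Rpa2 also passed with upper-quartile factors (0.0491), no low-count filter (0.0393), robust dispersions (0.0445) and library totals (0.0241), and Mcm6 with library totals (0.0121).

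**Figure D4:**
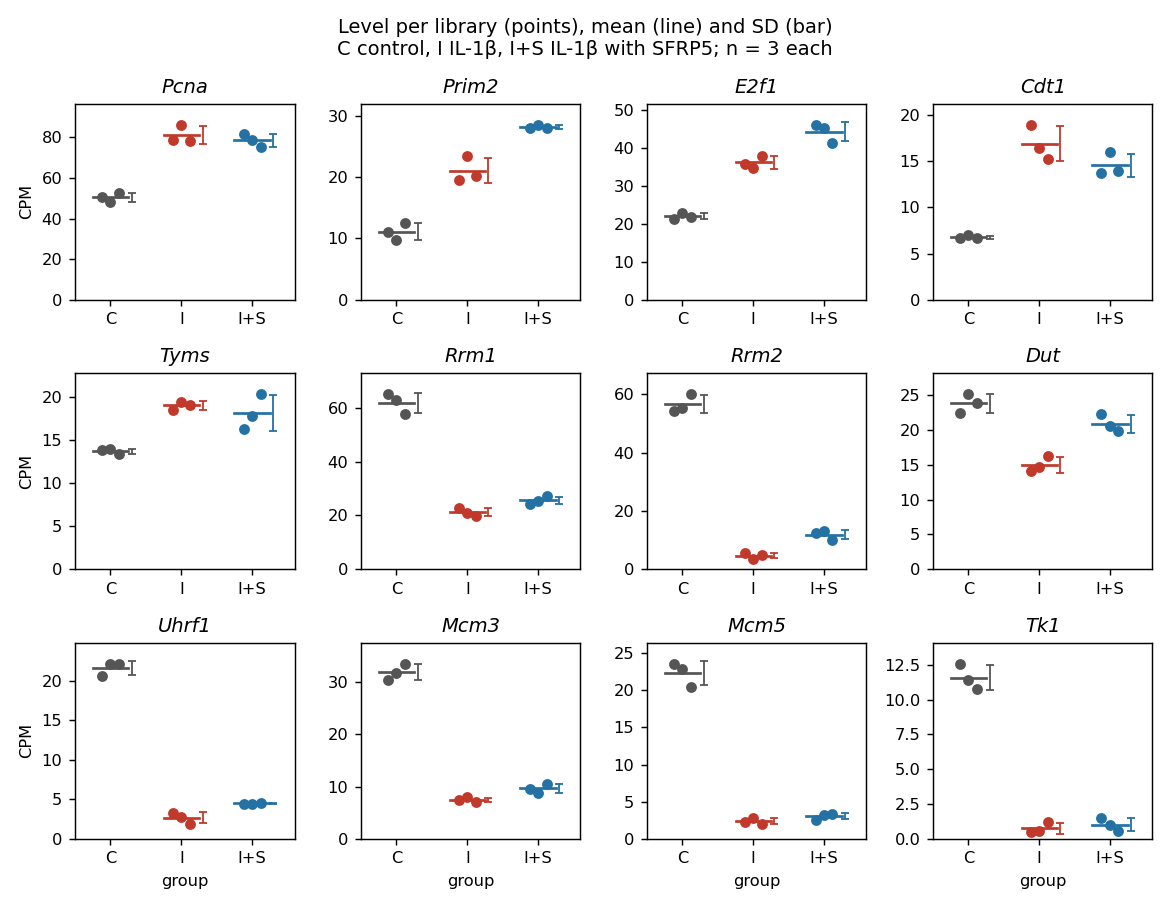
CPM (vertical axes, each starting at 0) of 12 genes in the 9 libraries; points are libraries, lines means and bars SD (n = 3 per group). The first 5 panels show the genes that rose with IL-1β; in the others control is highest, and for Rrm1, Rrm2, Dut, Uhrf1 and Mcm3 the SFRP5 libraries lie above those with IL-1β alone.

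The third comparison set cells with both factors against control cells. Of the 43 genes 40 were called, beside 76.3% of all genes, with 35 lower (81.4%, against 39% of all genes) and 5 higher (11.6%, against 37.3%), with a median log2 change of −1.28. There were 25 called and at least 2-fold lower, against 19% of all genes, and 40 whose groups did not overlap, against 78.2%. The 5 called higher were again Cdt1, Pcna, Prim2, Tyms and E2f1, at 215, 156, 255, 132 and 201% of control. This comparison shares the control libraries with the first one. The levels relative to control ran from 8.76% (Tk1) to 255% (Prim2), and 24 genes were below 50% of control, compared with 27 after IL-1β alone. Nearest to control were Ccne2, at 108% (0.10 ± 0.11, adjusted p = 0.397), Rfc1 at 89.6%, Orc1 at 89.0% (−0.16 ± 0.29, adjusted p = 0.625) and Dut at 87.6% (−0.19 ± 0.08, adjusted p = 0.0360). The call for Dut was lost on leaving out control library 2 (adjusted p = 0.149) or 3 (0.0666), any IL-1β library (0.0580 to 0.0692) or SFRP5 library 2 (0.134) or 3 (0.146), and Rfc1 (adjusted p = 0.00704) lost its call without SFRP5 library 2 (0.0597). With all libraries kept, Dut also lost it in DESeq2 (0.146), with RLE factors (0.051) and with no low-count filter (0.101). Rfc4 (adjusted p = 0.0119) lost its call in DESeq2 (0.0537). Pola2 was not called (adjusted p = 0.0529) but was without control library 3 (0.0246) or SFRP5 library 3 (0.0459). It was also called lower with upper-quartile factors (0.00625), robust dispersions (0.0497) and library totals (0.00391).

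Another 86 genes of replication and nucleotide synthesis were listed by function, and all 86 were tested. With IL-1β 17 were called higher and 52 lower (80.2% in all), with a median log2 change of −0.40, and with SFRP5 added 18 higher and 11 lower (33.7% in all), with a median of −0.01. Both shares called were near those of all genes tested, 78.9 and 31.3%. By direction, 60.5% of the 86 were called lower with IL-1β, against 40.4% of all genes, and 20.9% higher with SFRP5, against 15.6%. All 10 genes of chromatin copying fell with IL-1β, among them Cdca7, which works with the remodeler HELLS (log2 change −3.08), and the histone chaperone Asf1b (−2.66). With SFRP5 Cdca7 (1.05, adjusted p = 0.0123) and the methyltransferase gene Dnmt1 (0.20, adjusted p = 0.0347) were called higher, and the histone chaperone Nasp lower (−0.32, adjusted p = 0.00451). Of 17 genes of the E2F and Rb circuit 12 fell (70.6%, against 40.4% of all genes) and 3 rose (17.6%, against 38.5%). Ccna2, the cyclin of S phase, and the E2F repressor E2f8 fell (−5.11 and −3.93), while Rb1, the retinoblastoma protein that restrains E2F, and E2f5 rose (1.41 and 0.74). With SFRP5 5 of these 17 were called higher (29.4%, against 15.6% of all genes) and 0 lower by edgeR, where 6 in all had an unadjusted p under 0.05. In either direction that 29.4% was near the 31.3% of all genes. The largest rises were those of E2f7 (1.08, adjusted p = 0.00898) and E2f8 (0.95, adjusted p = 0.0213).

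Origin factors outside the 43 genes were mixed. Of 14, 5 fell (35.7%, against 40.4% of all genes) and 4 rose (28.6%, against 38.5%) with IL-1β. Dtl, a subunit of the ligase that marks CDT1 for destruction, and Topbp1, which helps to start replication, fell (−3.07 and −1.68), whereas the origin recognition subunits Orc5 and Orc4 rose (1.04 and 0.58). Dtl (1.02, adjusted p = 0.00167) and Topbp1 (0.49, adjusted p = 8.3e-05) were higher with SFRP5 added, and Orc2 (−0.29, adjusted p = 0.00101) and Orc4 (−0.20, adjusted p = 0.0350) were lower. Of 17 further fork genes 11 fell (64.7%, against 40.4% of all genes) and 3 rose (17.6%, against 38.5%) with IL-1β. The checkpoint mediator Clspn fell (−3.31), and Wdhd1, which links the helicase to polymerase α, and the polymerase δ subunit Pold4 rose (1.19 and 1.05). With SFRP5 2 of the 17 were higher (11.8%, against 15.6% of all genes), the RNase H2 subunits Rnaseh2b (0.52) and Rnaseh2c (0.37). The RNase H2 subunit Rnaseh2a was not called (−0.05, adjusted p = 0.802). Another 2 were lower (11.8%, against 15.7% of all genes), Wdhd1 (−0.35, adjusted p = 0.00373) and the polymerase ε subunit Pole4 (−0.17, adjusted p = 0.0424).

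Genes of nucleotide synthesis also went both ways. Of 11 genes that make or turn over deoxynucleotides 6 fell (54.5%, against 40.4% of all genes) and 2 rose (18.2%, against 38.5%) with IL-1β. Shmt1, of the thymidylate cycle, and the thymidylate kinase Dtymk fell (−2.05 and −1.66), while Tk2, the mitochondrial thymidine kinase, and the deoxycytidine kinase Dck rose (0.46 and 0.24). With SFRP5 3 of the 11 were higher (27.3%, against 15.6% of all genes) and 1 lower (9.09%, against 15.7%). The largest rise was that of Samhd1, which degrades deoxynucleotides (0.61, adjusted p = 4.1e-08), and the gene that fell was Tk2 (−0.23, adjusted p = 0.0233). Of 17 genes of purine and pyrimidine synthesis 8 fell (47.1%, against 40.4% of all genes) and 5 rose (29.4%, against 38.5%) with IL-1β. In either direction 76.5% were called, near the 78.9% of all genes. Cad, which starts pyrimidine synthesis, and Gart, of purine synthesis, fell (−1.37 and −0.88), whereas the purine salvage enzyme Hprt and Impdh1, of guanine nucleotide synthesis, rose (1.34 and 0.64). With SFRP5 4 were higher (23.5%, against 15.6% of all genes), led by the CTP synthase Ctps (0.56, adjusted p = 7e-09) and the pyrimidine enzyme Umps (0.41). Another 5 were lower (29.4%, against 15.7%), led by Atic (−0.38) and Hprt (−0.34).

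**Figure D5:**
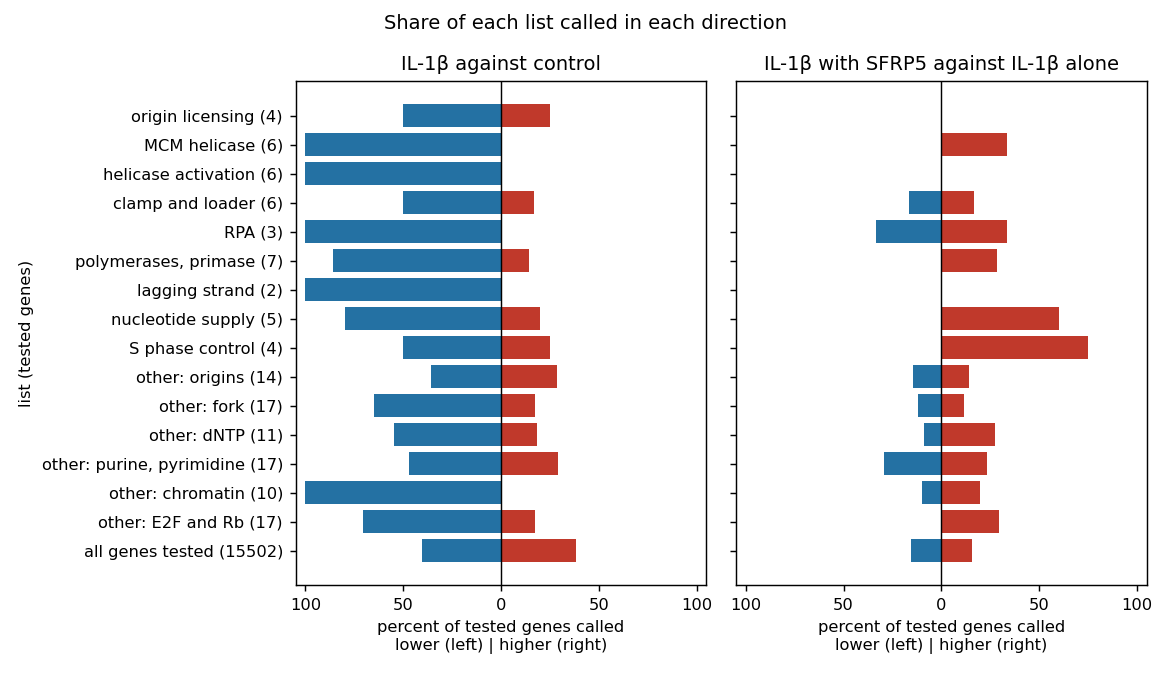
Percent of the tested genes of each list that edgeR called lower (bars to the left) or higher (bars to the right), with the number of genes tested in brackets, for IL-1β against control and for SFRP5 added against IL-1β alone. In the left panel the MCM, helicase activation, RPA, lagging-strand and chromatin lists are at 100% lower, against 40.4% of all genes tested.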

How the data were processed

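RNA sequencing of 9 libraries was used as 1 deposited table of whole-number counts per gene, unscaled. Per the labels' protocols and the submitters' processing notes, the authors trimmed paired reads from strand-keeping libraries with fastp, aligned them with STAR to mouse mm10 and quantified them with RSEM. Versions, the strand setting and the rounding of RSEM's estimates are not given in the sources used here. RSEM divides reads that match several genes, so genes with near copies are less certain. Table columns were matched to samples by letter and number. The table's gene positions were not used. They do not match mm10, the build the labels state: for 1992 of 20963 genes (9.5%) the RefSeq start in GRCm38.p6, the same assembly, lay within 1000 bases of the table's gene. Promoter positions are those of RefSeq, build GRCm38.p6. The table's gene lengths, whose derivation and build are not given there, served only for levels per kilobase.

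Counts were tested with edgeR 4.0.16 (R 4.3.3): filterByExpr by group, TMM factors, 1 mean per group, quasi-likelihood F tests with 6 residual degrees of freedom, and Benjamini-Hochberg adjustment over 15502 genes. The SE is the log2 change divided by the square root of F. Alternatives were DESeq2 1.42.0, RLE and upper-quartile factors, library totals, no low-count filter, robust dispersions, a replicate block, only the 6 libraries compared, and leaving out each library. Values per library are given for genes called with SFRP5 (the 12 with the smallest adjusted p), genes called higher with IL-1β, the 6 largest falls and the highest-count gene of each group; from other lists the 2 largest called changes in each direction may be named. The members and lists were chosen with earlier results of these data known. Libraries of a group were checked for duplicates: every pair differed beyond sampling noise, with a chi-square per tested gene between 2.2 and 4.79.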

Additional observations from a re-analysis of the deposited data

How the results depend on the processing

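Across 17 other settings, 38 of the 43 genes kept direction and call for IL-1β against control, 20 for SFRP5 added against IL-1β alone and 37 for both against control. The numbers of genes called stayed within 1.5 times of those given, except with SFRP5 against IL-1β alone, where DESeq2 called 7 higher, and library totals alone, a setting chosen after seeing the data, called 0 of the 43 and 1567 of all genes lower. Leaving out 1 library gave 8 to 12 called higher and 0 to 2 lower there, the 0 arising without IL-1β library 1 or 2 or SFRP5 library 1 or 2. Upper-quartile factors and library totals moved the median of all genes with IL-1β from −0.03 to −0.18 and −0.28, and with both factors against control from −0.02 to −0.16 and −0.19. The following genes, none of them called in the comparison named, changed sign. For IL-1β against control, Rfc1 was at −0.14 with upper-quartile factors and −0.24 with library totals, and ran from −0.012 to 0.058 with 1 library left out. For both factors against control, Ccne2 was at −0.031 and −0.062 under those 2 scalings, and Orc1 ran from −0.28 to 0.062 with 1 library left out. For SFRP5 against IL-1β alone, library totals gave 0.034 for Gins4, 0.067 for Lig1, 0.037 for Pcna and 0.0089 for Tyms. With 1 library left out that comparison ran from −0.029 to 0.16 for Pola2, −0.0082 to 0.46 for Orc1, −0.020 to 0.22 for Gins2, −0.021 to 0.45 for Cdc6, −0.034 to 0.16 for Mcm2, −0.051 to 0.32 for Prim1, −0.073 to 0.30 for Mcm10, −0.075 to 0.0036 for Pcna, −0.16 to 0.0073 for Tyms, −0.050 to 0.014 for Lig1 and −0.12 to 0.019 for Gins4. The cause was not tested.

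Libraries share a number across groups in the labels, but their deviations from the group means did not follow it (r of −0.0364 to 0.0402 over 9 pairs with the same number), so the number was not taken as a pairing. With the replicate block, 34 of the 43 genes were called lower and 5 higher for IL-1β against control. With 6 to 36 counts in a treated library, depth limits what could be told apart for Tk1, Gins1, Orc1, Cdc6 and Mcm10. Gins3 had 13 counts in IL-1β library 1.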
